A study of Homo sapiens with 6 samples.

Results

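The genes described here are 9 genes of the p53 response and of growth arrest, MDM2, CDKN1A, GADD45A, GADD45B, TP53INP1, TP53I3, ZMAT3, RRM2B and BTG2, chosen by name from the symbols of the deposited tables. All 9 were found once each among the 31369 genes of the count table, and all 9 were among the 15878 genes that passed the filter on low counts. HK-2 is a human cell line derived from proximal tubules of the kidney, immortalised with the E6 and E7 genes of a papillomavirus, and E6 is known to direct the p53 protein to degradation. RNA was sequenced from 3 control samples (NC, genotype WT) and 3 samples carrying the genotype PPM1K overexpress (OE), which the methods describe as transfection with a PPM1K plasmid, without naming what the control cells received. The sample titles read shControl and shPPM1K with Day10, all 6 samples carry the treatment entry "Chronic kidney disease", and the source entries give a different number after HK in each sample. These entries go against a plasmid experiment in HK-2 alone, so the groups were taken from the genotype entries. The study speaks of biological replication, but neither labels nor methods say whether the 3 samples of a group came from separate cultures, so the p-values measure only the spread between these samples.

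The p53 protein is a transcription factor that accumulates after DNA damage and other stress and switches on genes that stop the cell cycle, repair DNA or start cell death. Among its targets, MDM2 encodes the ubiquitin ligase that marks p53 for destruction, which closes a feedback loop, and CDKN1A encodes p21, the inhibitor of cyclin-dependent kinases behind p53-driven arrest. The GADD45 genes (growth arrest and DNA damage inducible) encode small stress sensors that bind PCNA, cyclin-dependent kinases and an upstream kinase of the p38 and JNK pathways. GADD45A answers to p53 and also, without p53, to amino acid and endoplasmic reticulum stress. TP53INP1 encodes a stress protein that acts in the nucleus and in autophagy, TP53I3 (PIG3) a quinone oxidoreductase, ZMAT3 a zinc finger protein that binds RNA, RRM2B the p53-inducible small subunit of ribonucleotide reductase, and BTG2 an antiproliferative partner of the mRNA deadenylation complex.

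Promoter sequences are shown because most of these genes are known as direct targets of p53. GADD45B, shown beside them, is best known as a target of other signals. The RefSeq windows used here run from 250 bases before to 50 after a transcription start on GRCh38.p14, and 6 of the 9 genes have a window that was read, 10 windows in all. No window of GADD45A, TP53INP1 or RRM2B was read, so what follows says nothing about their promoters. The p53 decamer, searched on both strands without a letter off, was in none of these 10 windows and in 6.63% of 35116 windows of all genes. A full p53 element, taken as 2 such decamers side by side, lay closest in the window of the second MDM2 start, where 20 bases from position -94 to -75, counted from the start, were 2 letters off, as near as in 0.649% of all windows. This inner start of MDM2 is known as its p53-responsive promoter. In CDKN1A, GADD45B, TP53I3 and the upstream MDM2 windows the closest 20 bases were 5 letters off, as near as in 70.5% of all windows, and in BTG2 and 1 ZMAT3 window, which are not shown because they reach into annotated exons, they were 4 letters off, as near as in 26% of all windows. The 250 bases before the TP53I3 start also lay within annotated exons of the gene itself. In the other ZMAT3 window the closest 20 bases were 6 letters off, as near as in 97.4% of all windows. Elements further from a start than these windows reach were not searched, so a gene may have a closer match outside them. An AP-1 site, TGANTCA, lay at position -118 of the inner MDM2 window and in 7.71% of all windows, and TGATGNAAN, the composite element of ATF4 and C/EBP proteins, was in none of the 10 windows and in 3.61% of all. The stretches from position -200 to -20 are given below with the closest 20 bases in capitals. All are on the plus strand, that of MDM2 is chr12:68808817-68808997 inside the gene and outside its annotated exons, that of CDKN1A is chr6:36678514-36678694, which DINOL overlaps on the other strand, and that of GADD45B is chr19:2475927-2476107.
MDM2: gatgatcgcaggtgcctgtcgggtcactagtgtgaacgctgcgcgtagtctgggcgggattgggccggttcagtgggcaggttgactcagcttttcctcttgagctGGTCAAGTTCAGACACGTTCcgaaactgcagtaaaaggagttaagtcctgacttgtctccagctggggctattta
CDKN1A: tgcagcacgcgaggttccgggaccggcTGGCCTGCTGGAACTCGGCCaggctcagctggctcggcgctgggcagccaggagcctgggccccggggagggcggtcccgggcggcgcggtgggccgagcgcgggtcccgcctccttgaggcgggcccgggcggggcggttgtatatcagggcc
GADD45B: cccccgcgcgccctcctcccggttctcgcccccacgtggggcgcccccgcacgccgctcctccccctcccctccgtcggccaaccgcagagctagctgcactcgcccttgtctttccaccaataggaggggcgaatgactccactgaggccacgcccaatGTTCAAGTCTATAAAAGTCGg

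PPM1K itself went from 19 to 53 counts per sample in NC to 2919 to 3531 in OE. Its log2 fold change was 6.39 ± 0.13 (SE, adjusted p = 1.1e-18 from edgeR), which follows the genotype entries and goes against the shPPM1K titles. Adjusted p-values here and below are from the quasi-likelihood F-test of edgeR, corrected over all tested genes by the Benjamini-Hochberg method. Total counts per sample were 34635770 to 36116963 in NC and 36033404 to 39850802 in OE. NC replicate 2 stood apart with 26478 genes having at least 1 count, against 22094 to 22913 in the other samples. Of 11 proximal tubule markers only PAX8 and CDH16 had a mean FPKM (fragments scaled to transcript length and to the library) of at least 1, and CUBN, AQP1 and HNF4A stayed under 0.1 in every sample, while 5 of 6 epithelial markers, keratins and EPCAM, were at 1 or more. Over the proximal tubule markers the summed FPKM was 29.4 to 31.5 in NC and 34.3 to 37.1 in OE. Most of this sum was PAX8, whose mean went from 27.7 to 33.5, while that of CDH16 went from 1.94 to 1.12. Over the epithelial markers the sum was 777 to 872 in NC and 668 to 726 in OE, and the genes did not move alike. Mean FPKM was lower in OE for KRT8 (289 to 209.5), KRT19 (212 to 154) and EPCAM (122 to 105). It was higher for KRT7 (35.3 to 45.9), and KRT18 was at 180 and 186. CDH1, the epithelial marker under 1, had a mean FPKM of 0.31 in NC and 0.15 in OE. The summed FPKM of 5 fibroblast markers was 2.94 to 3.10 in NC and 1.10 to 1.15 in OE, nearly all of it from COL1A1 and LUM, with COL1A2, PDGFRB and DCN under 0.1 throughout. That of 5 leukocyte markers was 0.12 to 0.16 and 0.09 to 0.10, and that of 4 endothelial markers 0.56 to 0.71 and 0.78 to 0.90. In bulk RNA, fewer cells expressing a gene and less RNA per cell cannot be told apart, and the part of these markers in the results was not tested.

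The 9 genes did not move as a group. In OE against NC, 4 rose at an adjusted p under 0.05, GADD45A, CDKN1A, RRM2B and GADD45B, 3 fell, TP53INP1, BTG2 and TP53I3, and 2, MDM2 and ZMAT3, did not pass. Of all tested genes 24.9% rose and 23.7% fell by the same test, so a gene passing it was common in these samples. Only GADD45A rose and only TP53INP1 fell by more than a fold change of 2, where 1.73% of all tested genes rose and 3.79% fell. In CPM, the counts after TMM scaling to library size, both groups were fully separate in 6 of the 9 genes, against 55.3% of all tested genes. The median log2 fold change was -0.06 over the 9 genes and -0.0032 over all tested genes. Their median size of change regardless of direction was 0.42, against 0.27 over all tested genes, and 443 tested genes changed by more than GADD45A in either direction.

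**Figure D1:**
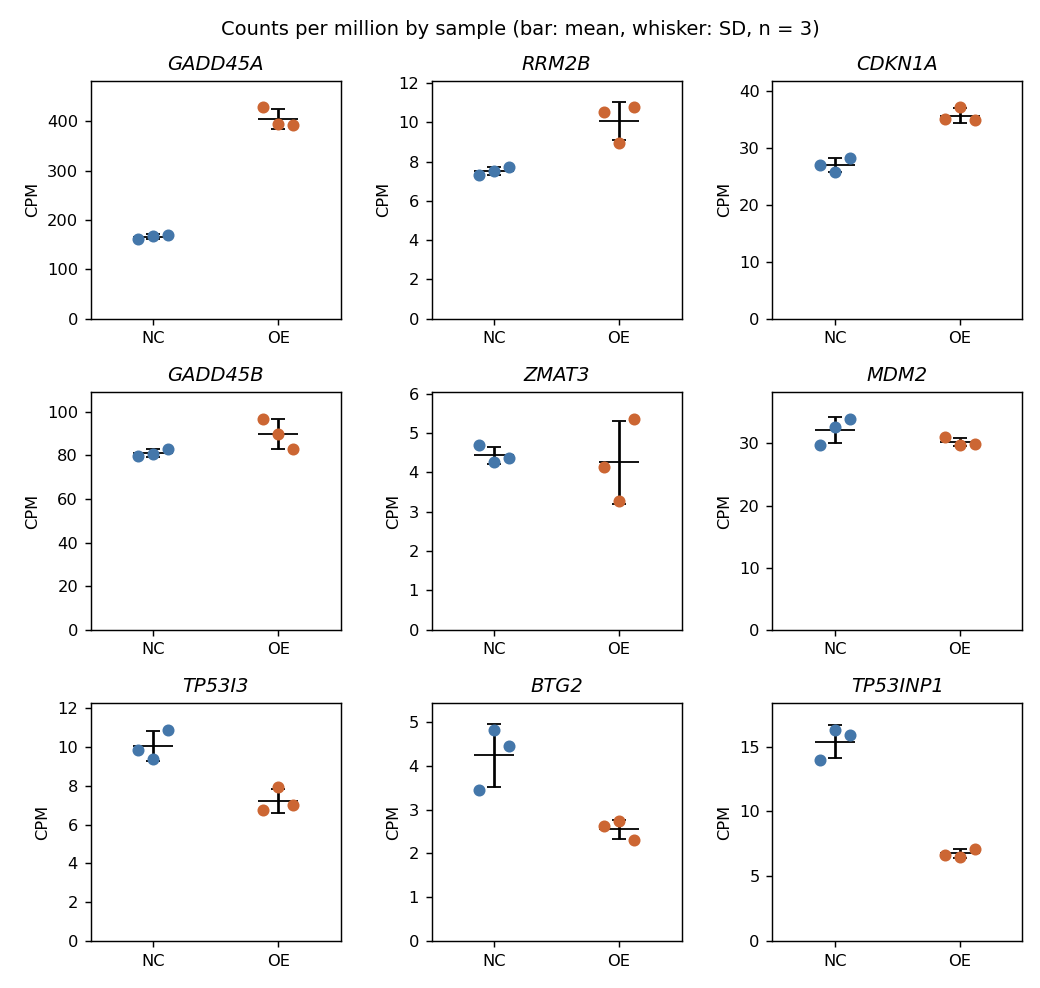
CPM (y axis, from 0) of each of the 9 genes in the 3 NC (blue) and 3 OE (orange) samples, ordered from the highest to the lowest log2 fold change, with a bar at the mean and whiskers of 1 SD. GADD45A stands at 161 to 170 in NC and 392 to 428 in OE, TP53INP1 at 14.0 to 16.3 and 6.47 to 7.13, and the samples of GADD45B, ZMAT3 and MDM2 overlap between the groups.

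GADD45A was the most abundant of the 9 genes and changed most. Its CPM was 161, 167 and 170 in the NC samples and 428, 393 and 392 in the OE samples, with no overlap. The mean went from 166 ± 4.56 (SD, n = 3) to 404 ± 20.4 (SD, n = 3), a 2.44-fold rise (95% interval 2.26 to 2.63) with a log2 fold change of 1.28 ± 0.05 (SE, adjusted p = 3.9e-14 from edgeR). Among all tested genes this lay at the percentile 99.2 of signed changes. Leaving out each sample in turn kept the log2 fold change between 1.25 and 1.31. The gene lies on the plus strand of chromosome 1 at 67685201 to 67688334 (GRCh38, GENCODE release 44), and overlaps no other annotated gene.

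GADD45B, a relative of GADD45A that is best known as a target of NF-kB and TGF-beta signals, changed little. It had a CPM of 79.7, 80.8 and 83.1 in NC and 96.9, 89.6 and 82.9 in OE, so OE replicate 3 lay inside the NC range. The log2 fold change was 0.15 ± 0.06 (SE, adjusted p = 0.041 from edgeR), and its fold of 1.11 had a 95% interval of 1.02 to 1.202. This call was lost in 4 of 9 other ways of processing and in 5 of the 6 fits that left out a sample, all but the one without OE replicate 3, with an adjusted p from 0.0025 to 0.22 over the 6, and without OE replicate 1 the log2 fold change was 0.09. In the deposited FPKM the samples did not overlap, at 34.3 to 35.9 in NC and 36.7 to 41.7 in OE. GADD45B lies on chromosome 19 at 2476122 to 2478259, plus strand, with no overlapping gene.

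GADD45G, the remaining relative, fell from a CPM of 2.27, 1.88 and 1.64 to 0.677, 0.910 and 0.798. Its counts were 59 to 79 in NC and 25 to 36 in OE, and the log2 fold change was -1.27 ± 0.24 (SE, adjusted p = 0.00015 from edgeR). Within the same samples the ratio of GADD45A to GADD45B in FPKM was 2.27 ± 0.0266 in NC and 5.01 ± 0.209 in OE (SD, n = 3 each), with no overlap. PPP1R15A (GADD34), the stress-induced regulator of eIF2alpha phosphatase, and DDIT3 (CHOP), both first isolated with GADD45A as growth arrest and DNA damage genes, rose with log2 fold changes of 1.02 and 1.08 (adjusted p = 6.6e-12 and 3.1e-12 from edgeR).

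CDKN1A, the p21 gene, rose modestly. Its CPM was 26.9, 25.8 and 28.2 in NC and 35.01, 37.0 and 34.8 in OE, with each OE sample above each NC sample. The 1.32-fold rise (95% interval 1.198 to 1.46) had a log2 fold change of 0.40 ± 0.07 (SE, adjusted p = 4.7e-05 from edgeR), the percentile 85.5 of all signed changes. CDKN1A lies on the plus strand of chromosome 6, from 36676460 to 36687337, and 4.87% of its exon length is shared with the antisense lncRNA gene DINOL. The methods describe a stranded library. Reads of genes on opposite strands can be told apart only where the counting also used strand, which the methods do not state.

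The inhibitors related to p21 went the other way or did not pass. CDKN1B (p27) fell from a CPM of 50.03 ± 0.798 (SD, n = 3) to 30.4 ± 1.11 (SD, n = 3), a log2 fold change of -0.72 ± 0.06 (SE, adjusted p = 4.2e-09 from edgeR), and CDKN1C (p57) had -0.23 (adjusted p = 0.051 from edgeR). The FPKM ratio of CDKN1A to CDKN1B went from 1.67 ± 0.0789 in NC to 3.63 ± 0.241 in OE (SD, n = 3 each). Of the 7 CDK inhibitors other than p21, 3 fell, CDKN2C (p18) with -0.82, CDKN1B and CDKN2B (p15) with -0.55, and 1 rose, CDKN3, a phosphatase acting on CDK2, with 0.19. These are 42.9% falling and 14.3% rising, beside 23.7% and 24.9% of all tested genes. The rise of CDKN3 was lost in 4 of the 6 fits without a sample, those without NC replicate 1 or 2 or OE replicate 1 or 2.

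MDM2 did not pass the test. Its CPM was 29.8, 32.7 and 34.0 in NC and 31.0, 29.7 and 29.98 in OE, and the samples overlapped. The log2 fold change of -0.09 ± 0.07 (SE, adjusted p = 0.29 from edgeR) had a 95% interval of -0.24 to 0.05, a fold of 0.850 to 1.04, so a change of the size seen in CDKN1A lay outside the interval. It kept its sign in every fit that left out a sample, from -0.14 to -0.05. MDM2 is on the plus strand of chromosome 12, from 68808177 to 68845544, and its exons share 9.45% of their length with an antisense lncRNA gene, 5.29% with a processed pseudogene on its own strand and 1.601% with the carboxypeptidase M gene on the other strand.

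MDM4, the relative that binds p53 without marking it for destruction, had CPM values of 17.3, 21.4 and 19.5 in NC and 24.5, 22.4 and 21.4 in OE, with overlap, and a log2 fold change of 0.23 (adjusted p = 0.030 from edgeR). The FPKM ratio of MDM2 to MDM4 was 2.21 ± 0.160 in NC and 1.76 ± 0.0930 in OE (SD, n = 3 each).

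TP53INP1 fell most among the 9 genes. Its CPM was 14.0, 16.3 and 15.9 in NC and 6.66, 6.47 and 7.13 in OE, so even the highest OE sample lay well under the lowest NC sample. The mean went from 15.4 ± 1.25 (SD, n = 3) to 6.75 ± 0.338 (SD, n = 3), to 0.439 of the NC level (95% interval 0.382 to 0.503), with a log2 fold change of -1.19 ± 0.10 (SE, adjusted p = 2e-09 from edgeR). The interval reaches just past the fold change of 0.5. Over the fits without a sample the log2 fold change was -1.25 to -1.14, and on log2(FPKM + 1), which compresses levels this low, limma's size of change no longer passed the fold threshold. The gene is on chromosome 8, from 94925972 to 94949378, minus strand, and 3.99% of its exon length is shared with NDUFAF6 on the opposite strand. Its relative TP53INP2, an autophagy protein, also fell, with a log2 fold change of -0.90 (adjusted p = 2.2e-06 from edgeR).

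TP53I3, the quinone oxidoreductase, fell to 0.721 of its NC level (95% interval 0.620 to 0.838). The CPM was 9.86, 9.38 and 10.9 in NC and 6.77, 7.94 and 6.99 in OE, without overlap, and the log2 fold change was -0.47 ± 0.10 (SE, adjusted p = 8e-04 from edgeR). CRYZ, another enzyme of the same quinone oxidoreductase family, fell further, from a CPM of 55.2 ± 1.02 (SD, n = 3) to 27.7 ± 1.17 (SD, n = 3), a log2 fold change of -0.995 (adjusted p = 2.9e-11 from edgeR). TP53I3 lies on the minus strand of chromosome 2 at 24077433 to 24085861, with 3.46% of its exon length shared with FAM228B on the opposite strand.

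ZMAT3, the lowest of the 9 in FPKM and above BTG2 in CPM, showed no change that these samples can resolve. Its CPM was 4.68, 4.26 and 4.37 in NC and 4.14, 3.26 and 5.37 in OE. The OE samples lay on both sides of the NC range, with a coefficient of variation of 24.8% where counting alone gives 7.93%. The log2 fold change of -0.06 ± 0.16 (SE, adjusted p = 0.76 from edgeR) had a 95% interval of -0.39 to 0.26, and it was 0.10 without OE replicate 2. ZMAT3 is on chromosome 3, from 178960121 to 179072215, minus strand, with no overlapping gene.

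RRM2B rose about as much as CDKN1A. It had a CPM of 7.33, 7.53 and 7.73 in NC and 10.5, 8.95 and 10.8 in OE, with OE replicate 2 closest to the NC samples and still above them. The 1.34-fold rise (95% interval 1.152 to 1.55) had a log2 fold change of 0.42 ± 0.10 (SE, adjusted p = 0.002 from edgeR), between 0.37 and 0.50 in the fits without a sample. The gene is on chromosome 8, from 102204502 to 102238961, minus strand, with no overlapping gene. Of the other subunits of ribonucleotide reductase, which makes DNA precursors, RRM2, the small subunit of dividing cells, rose with a log2 fold change of 0.21 (adjusted p = 0.0013 from edgeR) and RRM1, the large subunit, fell with -0.48 (adjusted p = 7.4e-08 from edgeR). RRM2B stood far below RRM2 in FPKM, at a ratio of 0.0678 ± 0.00138 in NC and 0.0785 ± 0.00807 in OE (SD, n = 3 each).

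BTG2 fell to 0.603 of its NC level (95% interval 0.479 to 0.760). Its CPM was 3.45, 4.83 and 4.45 in NC and 2.63, 2.73 and 2.31 in OE. The groups did not overlap, and the NC samples varied by 16.8% (coefficient of variation), where counting alone gives 8.16%. The log2 fold change was -0.73 ± 0.16 (SE, adjusted p = 0.00074 from edgeR), from -0.85 to -0.62 in the fits without a sample. BTG2 is on the plus strand of chromosome 1, from 203305491 to 203309602, with no overlapping gene in the annotation. Within its family of antiproliferative genes, BTG1 rose with a log2 fold change of 0.79 (adjusted p = 2.1e-09 from edgeR), TOB1 and TOB2 fell with -0.67 and -0.49, and BTG3 had -0.15 (adjusted p = 0.25 from edgeR).

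**Figure D2:**
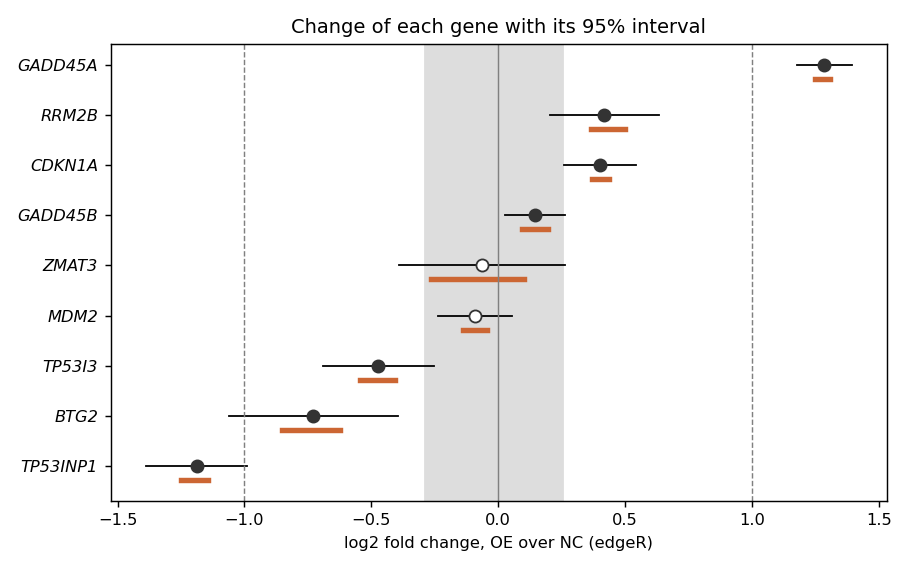
log2 fold change of OE over NC (x axis) of the 9 genes with its 95% interval (black line), filled points for an adjusted p under 0.05 and open points above it, and in orange the range over the 6 fits that each left out a sample. The grey band holds the middle 50% of all tested genes, from -0.29 to 0.25, and the dashed lines mark a fold change of 2. GADD45A and TP53INP1 lie past the dashed lines, and the interval of TP53INP1 reaches -0.99.

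**Figure D3:**
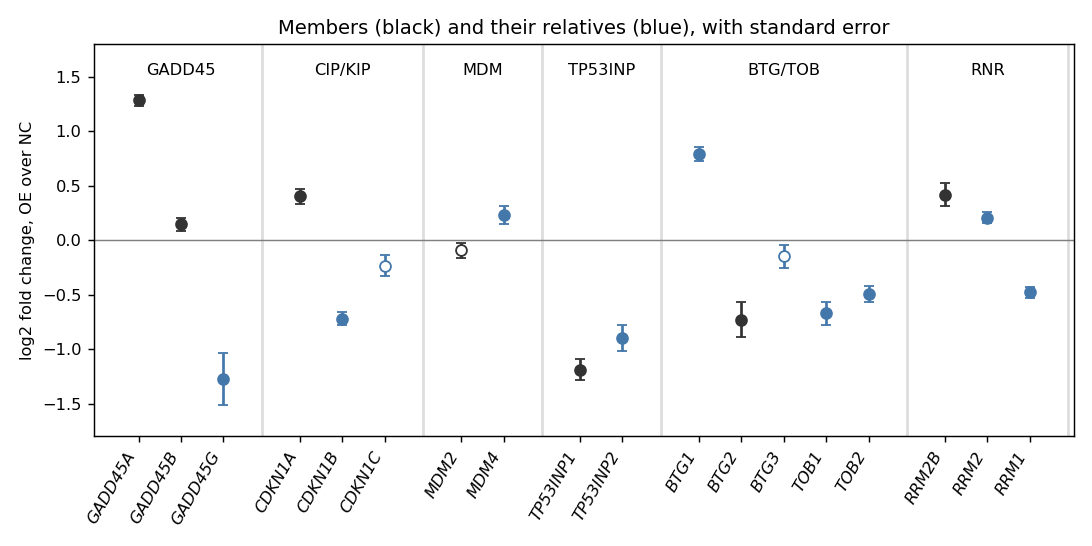
log2 fold change of OE over NC (y axis) with its standard error for the members of 6 gene families, grouped from left to right, genes of the set in black and their relatives in blue, filled at an adjusted p under 0.05 (RNR, ribonucleotide reductase). GADD45A at 1.28 and GADD45G at -1.27 are the extremes of 1 family, as are BTG1 at 0.79 and BTG2 at -0.73 of another.

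Of the 14 tested relatives of the 9 genes, 3 rose and 9 fell at an adjusted p under 0.05, which is 21.4% and 64.3% beside 24.9% and 23.7% of all tested genes, and their median log2 fold change was -0.49. In each of the 4 pairs of a gene and a relative whose FPKM ratio was compared, the NC and OE ratios did not overlap. The difference in log2 ratio, OE minus NC, was 1.14 for GADD45A to GADD45B, 1.12 for CDKN1A to CDKN1B, -0.32 for MDM2 to MDM4 and 0.21 for RRM2B to RRM2. An exact two-sided permutation test gave p = 0.1 for each, and 0.1 after Benjamini-Hochberg adjustment over the 4, the smallest that 3 samples against 3 allow. These ratios do not depend on the scaling of a library.

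**Figure D4:**
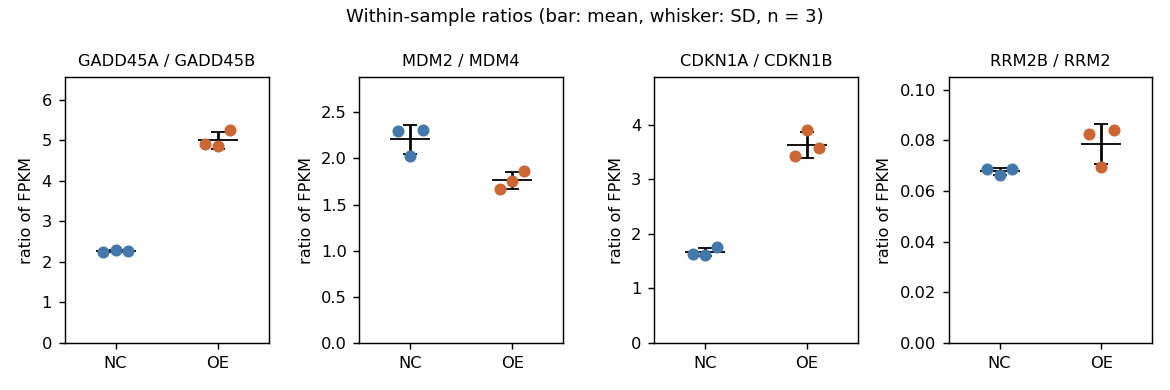
FPKM ratio (y axis, from 0) of a gene to a relative within each of the 3 NC (blue) and 3 OE (orange) samples, with the mean and SD. The ratio of GADD45A to GADD45B stands at 2.24 to 2.30 in NC and 4.87 to 5.25 in OE, while for RRM2B to RRM2 OE replicate 2, at 0.0693, comes close to the highest NC sample, at 0.0688.

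Per length, the levels of the 9 genes spanned a wide range. In NC the order by mean FPKM was GADD45A at 79.4 ± 1.84 (SD, n = 3), GADD45B at 34.98 ± 0.817, CDKN1A at 8.30 ± 0.436, TP53I3 at 4.003 ± 0.331, MDM2 at 3.57 ± 0.215, TP53INP1 at 2.51 ± 0.177, BTG2 at 1.42 ± 0.219, RRM2B at 1.29 ± 0.0289 and ZMAT3 at 0.363 ± 0.0252. The samples of TP53I3 and MDM2 overlapped, as did those of BTG2 and RRM2B, so these neighbours cannot be put in order. In OE GADD45A stood at 196 ± 7.29 (SD, n = 3), GADD45B at 39.2 ± 2.52 and CDKN1A at 11.1 ± 0.420, the same first 3 places. Below them came MDM2 at 3.40 ± 0.0436, TP53I3 at 2.92 ± 0.265, RRM2B at 1.74 ± 0.175, TP53INP1 at 1.12 ± 0.0700, BTG2 at 0.867 ± 0.0709 and ZMAT3 at 0.353 ± 0.0907, with no overlap between neighbours. GADD45A made up 58.2% to 58.8% of the summed FPKM of the 9 genes in the NC samples and 75.8% to 76.8% in the OE samples.

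Among 27 tested p53 target genes outside the set, 14 rose and 6 fell at an adjusted p under 0.05, with a median log2 fold change of 0.22. SESN2, a sestrin that restrains mTORC1, was the only one past the fold change of 2, at 25.1 ± 2.17 CPM in NC and 91.5 ± 2.63 CPM in OE (SD, n = 3 each) and a log2 fold change of 1.87 ± 0.06 (SE, adjusted p = 2.3e-15 from edgeR). Next by p were PMAIP1 (NOXA), a BH3-only death protein, with 0.73, the TRAIL receptor TNFRSF10B with 0.79 and the secreted stress factor GDF15 with 0.69. SESN2, PMAIP1, TNFRSF10B and GDF15 are also known to answer to ATF4 or CHOP. The share that rose was 51.9% and the share that fell 22.2%, beside 24.9% and 23.7% of all tested genes. The number that fell was 2 without NC replicate 1 and 3 without OE replicate 1. SESN1, the sestrin most closely tied to p53, fell with -0.54 (adjusted p = 0.012 from edgeR), at 78 to 124 counts per sample. PPM1D, POLH, PLK3, CCNG1 and IER5 also fell, with -0.52, -0.37, -0.32, -0.19 and -0.16 (adjusted p of 0.046 or less from edgeR). FAS, DDB2, BBC3, BAX and PHLDA3, also among the 14 that rose, had 0.50, 0.48, 0.43, 0.33 and 0.33 (adjusted p of 0.0022 or less from edgeR). TP53AIP1, EDA2R, SPATA18 and TNFRSF10C were too low to be tested.

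Of 21 tested genes of a list on p53 regulation, 10 rose (47.6%) and 3 fell (14.3%), beside 24.9% and 23.7% of all tested genes, with a median of 0.05, and 6 rose without NC replicate 1 or NC replicate 3. CREBBP, an acetyltransferase and coactivator of p53, had the smallest p, with a log2 fold change of 0.80 (adjusted p = 3e-10 from edgeR). RCHY1 (PIRH2), a ubiquitin ligase for p53, rose with 0.50, while DYRK2, a p53 kinase, fell with -0.45 and PPM1D (WIP1), a phosphatase that is both target and brake of p53, fell with -0.52. UBE3A, the cellular ligase through which papillomavirus E6 acts on p53, had 0.23 (adjusted p = 0.0076 from edgeR).

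Of 30 genes of a list on the cell cycle, chiefly S phase and mitosis, 7 rose (23.3%) and 12 fell (40%), beside 24.9% and 23.7% of all tested genes, none past a fold change of 2, with a median of -0.08. CCND1 (cyclin D1) rose from a CPM of 173 ± 8.67 (SD, n = 3) to 304 ± 5.49 (SD, n = 3), a log2 fold change of 0.81 (adjusted p = 4.1e-11 from edgeR), AURKB rose with 0.53 and FOXM1 with 0.43, and RRM1 fell. MKI67 (Ki-67), the usual label of cycling cells, had 0.13 (adjusted p = 0.071 from edgeR). Among 15 GADD genes and partners of the GADD45 proteins, 5 rose (33.3%) and 3 fell (20%), close to the shares of all tested genes, with a median of 0.05. GADD45GIP1, a mitochondrial ribosome protein named for its binding of GADD45G, rose with 0.41, and CCNB1 (cyclin B1), whose kinase complex GADD45A can inhibit, fell with -0.34.

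**Figure D5:**
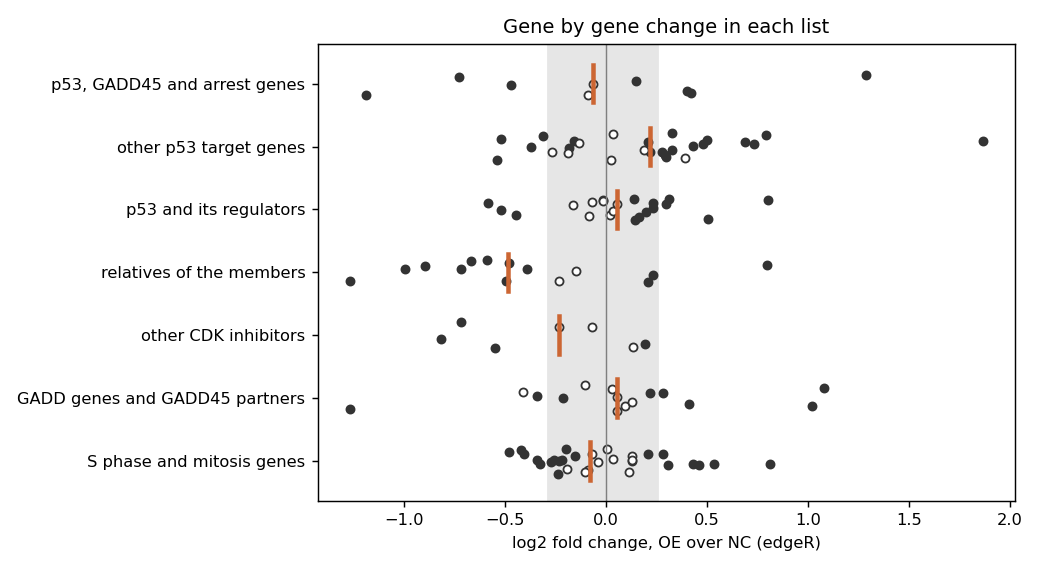
log2 fold change of OE over NC (x axis) of each tested gene of the 9-gene set and of 6 lists (rows), filled at an adjusted p under 0.05 and open above it, spread vertically only to keep points apart, with an orange bar at the median. The grey band holds the middle 50% of all tested genes. The medians run from -0.49 in the relatives to 0.22 in the other p53 target genes.

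The genes whose 6 values lay closest to those of GADD45A, by the root mean square difference of log2 CPM centred on the NC mean among the 11770 tested genes whose mean count was 100 or more, were PSAT1, a serine synthesis enzyme, at 0.0322, G0S2, an inhibitor of lipolysis, at 0.0551 and ZFAS1, a snoRNA host gene, at 0.0571. Closest to TP53INP1 were IDI1, of cholesterol synthesis, at 0.0588, MNS1 at 0.0743 and GABARAPL1, an autophagy protein, at 0.0873. This describes likeness over 6 samples in 2 groups, where any gene that changed by about the same amount comes close.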

How the data were processed

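Reads were cleaned by the authors with FASTX-Toolkit and mapped with HISAT2 on GRCh38, and reads mapping to a single place were counted for each gene. The submitters' processing notes also list mm10. The annotation, the counting program and its use of strand are not given in the sources used here. The deposited count table holds raw counts without normalization, and the deposited FPKM values were computed by the authors from the same reads and rounded to 2 decimals.

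OE was compared with NC on the counts by the quasi-likelihood F-test of edgeR 4.0.16 (R 4.3.3), after filterByExpr and TMM, with Benjamini-Hochberg adjustment over 15878 genes. Following the study, thresholds of 0.05 on the adjusted p and of 2 on the fold change, either way, were used. Each standard error is the log2 fold change divided by the root of its F. CPM was computed from the counts. At 34635770 to 39850802 counts per sample, counting error alone was 0.811% to 10.2% of the group mean over the 9 genes. Alternatives were DESeq2 1.42.0 (the study's tool), limma 3.58.1 on log2 FPKM, other scalings and filters, a replicate block and each sample left out. The fits were tested on simulated data. The replicates were not copies of each other, with a mean chi-square per gene of 5.18 to 12.0 where sampling noise gives about 1.

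The 9 genes and the 6 lists were chosen with earlier results of these data known. Named from each list were the 4 genes with the smallest adjusted p and those past the fold change. A gene the naming rule also covers is not reported here. SESN1, FAS, DDB2, BBC3, BAX, PHLDA3, TP53INP2, TOB1, TOB2, BTG3, CDKN1C, UBE3A and MKI67 were singled out after their values were seen. So were POLH, PLK3, CCNG1 and IER5, and the p53 element of 2 decamers. Genes close in pattern were sought for GADD45A and TP53INP1, the genes past the fold change. Gene identifiers without version matched GENCODE release 44 (GRCh38) for 99.8% of the table. Promoter windows are from RefSeq (GRCh38.p14). Figures were drawn with matplotlib 3.10.9.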

Additional observations from a re-analysis of the deposited data

How the results depend on the processing

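Of the log2 fold changes of the 9 genes, those of GADD45A, CDKN1A, RRM2B, TP53INP1, TP53I3 and BTG2 kept their direction and passed the adjusted p in all 6 fits without a sample and all 9 other alternatives. GADD45B lost its call under upper quartile normalization (0.11), without a filter on low counts (0.15), with limma on log2(FPKM + 1) without a filter (0.16) and with the replicate block (0.14, adjusted p = 0.094 from edgeR). ZMAT3 ranged from -0.27 to 0.10 without a sample and reversed without OE replicate 2. limma on log2(FPKM + 1), with and without a filter on low values, left 0 of the 9 genes past the fold change downwards (1 in the edgeR fit), since the pseudocount compresses low levels. Over all tested genes limma on log2(FPKM + 1), on log2(FPKM + 0.1) and on log2(FPKM + 1) without a filter gave 2466, 2462 and 2499 lower genes at the adjusted p, 56, 112 and 56 higher past the fold change and 69, 161 and 67 lower past it, in place of 3766, 274 and 601. The limma fits filtered on FPKM or not at all, so they tested another set of genes than edgeR did. The cause of these moves over all tested genes and of the following moves was not tested. Other p53 target genes falling numbered 3 with DESeq2, 1 with limma on log2(FPKM + 1) without a filter and 2 to 6 without a sample (2 without NC replicate 1, 3 without OE replicate 1). p53 regulators rising numbered 6 under upper quartile normalization, 4 with limma without a filter and 6 to 8 without a sample (6 without NC replicate 1 or 3). CDK inhibitors rising numbered 0 under upper quartile normalization and 0 to 1 without a sample (0 without NC replicate 1 or 2 or OE replicate 1 or 2). The replicate numbers did not pair the samples: same-numbered deviations from the group means correlated at -0.00319, -0.0663 and -0.0542 over the tested genes, and the replicate block changed no other call of the 9 genes. PPM1K stayed between 6.08 and 6.75 without a sample. Of the 9 genes, BTG2 and ZMAT3 had the fewest counts and the widest standard errors.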
